A study of Homo sapiens with 6 samples.

Results

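The 10 genes described here encode the enzymes and regulators that make arginine and turn it into polyamines: ASS1, ASL, ARG2, ODC1, SRM, SMS, SAT1, AMD1, OAZ1 and AZIN1. They were listed by name with their difference between the groups already known, so that difference is described below without a test. They are 10 of the 56303 gene symbols in the count table, and all 10 were among the 18243 genes with enough counts to be tested. The mRNA came from SW480, a human colon adenocarcinoma line, and was sequenced to learn what depends on the splicing factor RBM39. Cells were infected with lentivirus carrying a nonsilencing hairpin (shCtrl, genotype labelled WT) or a hairpin against RBM39 (shRBM39, genotype labelled as a knockdown), with 3 libraries per group and 6 in all. Both groups were grown in the same serum-containing medium, passed through lentiviral infection and puromycin selection, and are described as stable clonal lines. The number of clones behind each group is not given in the sources used here, so a property of a clone and an effect of the hairpin cannot be told apart.

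Arginine is made from citrulline in a pair of steps. ASS1 joins citrulline to aspartate, and ASL splits the product into arginine and fumarate. Arginase returns arginine to ornithine, and ODC1 decarboxylates ornithine to putrescine, the first committed step of polyamine synthesis. SRM and SMS then lengthen putrescine to spermidine and spermine with aminopropyl groups that AMD1 provides from S-adenosylmethionine, while SAT1 acetylates spermidine and spermine for export or oxidation. Antizymes such as OAZ1 send ODC1 to the proteasome, and AZIN1 binds antizymes and frees ODC1. Tumours with little ASS1 depend on arginine from outside the cell, and colon tumours are known for high ODC1 activity.

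The libraries held between 18042924 and 20428901 counts, and replicates differed by more than counting noise in each pair of a group. RBM39 itself was at 441, 448 and 435 CPM (counts scaled to library size with TMM factors) in shCtrl and at 266, 276 and 292 CPM in shRBM39, a log2 fold change of -0.67 (SE 0.038). The colon epithelial markers EPCAM, KRT8, KRT18, VIL1 and CDH1 were well detected, whereas CDX1 had at most 2 counts and KRT20 at most 25 in any library. The 8 epithelial markers summed to between 10900 and 11650 CPM in shCtrl and between 13880 and 14430 CPM in shRBM39, mostly from KRT8 and KRT18. CDX2, a transcription factor of the intestinal epithelium, went the other way, at 21.7 CPM on average in shCtrl and 4.95 CPM in shRBM39, a log2 fold change of -2.13 (SE 0.090). Of the markers of other cells, PTPRC was at 0 throughout and DCN, CDH5 and CD3E had at most 1 count. The sums were 15.7 to 17.0 and 16.2 to 17.7 CPM for 4 leukocyte markers, 9.99 to 11.1 and 14.0 to 14.6 CPM for 4 fibroblast markers and 3.47 to 4.58 and 6.45 to 7.96 CPM for 3 endothelial markers, in shCtrl and shRBM39. Their part in the results below was not tested.

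Across all genes the knockdown libraries differed widely from the controls. Of 18243 tested genes, 59.1% passed edgeR's quasi-likelihood test at an adjusted p under 0.05, 29.2% as higher and 29.9% as lower in shRBM39. In 63.3% the 3 CPM values of a group did not overlap those of the other, with shRBM39 below in 32.3% and above in 31.0%. Of the 10 genes, 9 passed the same threshold, 6 as higher (ASL, ODC1, SRM, SMS, AMD1 and OAZ1) and 3 as lower (ASS1, ARG2 and SAT1), and the same 9 did not overlap between groups. Because the genes were chosen on this contrast, nothing is read from these counts. The median log2 fold change of the 10 genes was 0.10, against -0.01 for all tested genes. Scaling by library totals alone moved the median of all tested genes to -0.14. It took ODC1 and OAZ1 to just below 0, where neither was called. It also lowered the share of higher genes among those called from 49.4% to 33.9%.

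ASS1, the enzyme that commits citrulline to arginine synthesis, was far lower in the knockdown than in the control. Its row lies at chr9:130444929-130501274 on the plus strand (GRCh38). ASS1 was at 357, 359 and 349 CPM in shCtrl replicates 1, 2 and 3, from 7195, 7627 and 7087 counts. It was at 56.4, 63.6 and 61.3 CPM in shRBM39, from 1104, 1094 and 1188 counts. The groups were far apart, and the replicates of each lay close together, with coefficients of variation of 1.55% and 6.11%. The level was 5.88-fold lower in shRBM39, a log2 fold change of -2.56 (SE 0.043, 95% interval -2.64 to -2.47), and it lay between -2.68 and -2.50 in every alternative fit. In bulk RNA, fewer cells with the transcript and less transcript per cell cannot be told apart.

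Among all tested genes this log2 fold change ranked 22 from the lowest. Of 12058 genes averaging 5 CPM or more, 5 had a lower one. None of the 384 genes whose shCtrl level was at or above that of ASS1 did. The human genome holds many processed copies of ASS1, and the table has 10 rows for them. These rows together had 4 to 16 counts per library, 0.113% to 0.823% of the ASS1 counts, and whether reads that match several copies were counted is not stated.

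A RefSeq promoter window of ASS1 is shown because it is the gene that differed most. RefSeq gives 2 windows for it, and the one shown holds an E-box while the other, at chr9:130444457-130444756, holds 0. The window runs from 250 bases before to 50 bases after a transcription start, at chr9:130444711-130445010 on the plus strand of GRCh38.p14. Capitals mark an E-box, the letters CACGTG, which begins 71 bases before that start.
ASS1 promoter: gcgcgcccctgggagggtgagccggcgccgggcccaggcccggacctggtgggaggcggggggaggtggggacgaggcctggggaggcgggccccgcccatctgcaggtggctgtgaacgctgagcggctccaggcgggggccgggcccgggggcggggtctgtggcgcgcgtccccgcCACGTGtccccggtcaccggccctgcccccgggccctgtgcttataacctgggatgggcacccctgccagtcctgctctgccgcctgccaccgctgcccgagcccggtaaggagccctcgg
Both CACGTG and TGATGNAA, a core of composite C/EBP-ATF sites, were searched on both strands. The end of the first and the start of the other share the letters TG, so matches could overlap. CACGTG occurred in 7.26% of 35116 RefSeq windows and TGATGNAA in 3.62%, and 8.78% and 4.46% of 27305 genes had a window with them. In 13 windows of 9 of the 10 genes, 3 genes had an E-box (ASS1, ODC1 and SRM) and 0 had TGATGNAA. A match is a stretch of letters and was not examined as a bound site.

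**Figure D1:**
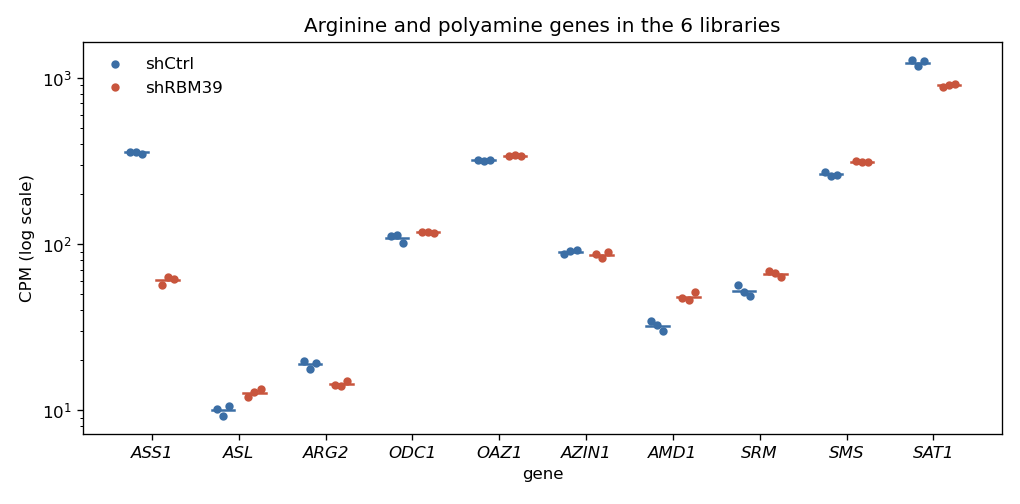
CPM of the 10 genes (log scale) in each of the 3 shCtrl and 3 shRBM39 libraries, points being libraries and bars group means. ASS1 averages 355 CPM in shCtrl and 60.4 CPM in shRBM39, while the groups of AZIN1 overlap on this scale. The slightly higher level of ODC1 and OAZ1 in shRBM39 is lost when library totals alone set the scale.

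ASL, which completes arginine synthesis, differed from ASS1 in direction. It was at 10.2, 9.19 and 10.6 CPM in shCtrl and at 12, 12.8 and 13.5 CPM in shRBM39. All knockdown values lay above all control values, with a log2 fold change of 0.35 (SE 0.087). ASL had between 195 and 261 counts per library, the fewest of the 10 genes, and its SE was the largest of them. A row on the same strand, AC068533.7, shares 563 bases or 17.6% of the ASL exons and had 499 to 560 counts, and a pseudogene row had 5 to 21 counts. The ASL row lies at chr7:66075798-66093558 on the plus strand, and reads from the shared stretch could belong to either row.

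A ratio within a library does not depend on how libraries are scaled. Pairs of these genes were therefore compared per length, as the ratio of RPKM (counts scaled by exon length and library total). The size of a ratio depends on the merged exon lengths used, whereas its fold difference between groups does not. ASS1 stood at 36.8, 41.0 and 34.4 times the level of ASL in shCtrl. In shRBM39 it stood at 4.92, 5.21 and 4.77 times that level. The ratio of the 2 enzymes was thus 7.53-fold lower in the knockdown, and the groups did not overlap.

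ARG2, the mitochondrial arginase, was lower in shRBM39. It was at 19.7, 17.8 and 19.2 CPM in shCtrl and at 14.2, 14.0 and 14.9 CPM in shRBM39. The groups did not overlap, and the log2 fold change was -0.39 (SE 0.073), or 1.31-fold lower. ARG1, the liver arginase, had 0 counts in all libraries. The ARG2 row, chr14:67619798-67651720 on the plus strand, shares 37.4% of its exon bases with VTI1B on the opposite strand, which had 2074 to 2660 counts per library. The libraries were made with a stranded kit, but whether strand was used in counting is not stated.

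ODC1 (chr2:10439968-10448504, minus strand), the decarboxylase that opens polyamine synthesis, was nearly level. It was at 111, 112 and 102 CPM in shCtrl and at 118, 118 and 116 CPM in shRBM39. The knockdown values all lay above the control values, by a log2 fold change of 0.11 (SE 0.042). shCtrl replicate 3 was the lowest of the 6, and without it the value was 0.07. Under library totals alone the log2 fold change was -0.01 (SE 0.041) and was not called.

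OAZ1 (chr19:2269509-2273490, plus strand), the antizyme that marks ODC1 for breakdown, was also nearly level. It was at 319, 315 and 321 CPM in shCtrl and at 339, 345 and 337 CPM in shRBM39. The log2 fold change was 0.10 (SE 0.036). Under library totals alone it was -0.03 (SE 0.034) and was not called. Rows of JSRP1 on the opposite strand and of LLfos-48D6.2 on the same strand share 6.87% and 6.40% of the OAZ1 exon bases. Translation of OAZ1 and turnover of ODC1 respond to polyamines after transcription, and neither can be seen in RNA counts.

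AZIN1 (chr8:102826357-102893864, minus strand), which binds antizyme in place of ODC1, was the gene of the 10 whose groups overlapped in TMM-scaled CPM. It was at 87.1, 91.3 and 91.4 CPM in shCtrl and at 87.4, 82.3 and 89.1 CPM in shRBM39. The log2 fold change was -0.06 (SE 0.043), with a 95% interval from -0.15 to 0.03. Without shRBM39 replicate 2, the lowest library, it was -0.02, and under library totals alone it was -0.18.

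Within a library, the ODC1 level per length was 0.395 ± 0.024 of the OAZ1 level in shCtrl and 0.399 ± 0.0042 in shRBM39 (SD, n = 3). The ranges overlapped. AZIN1 stood at 0.151 ± 0.0047 of OAZ1 in shCtrl and at 0.136 ± 0.0071 in shRBM39, and these did not overlap. ODC1 relative to ARG2, the enzyme that supplies its substrate, was 4.69 ± 0.422 in shCtrl and 6.65 ± 0.271 in shRBM39, again without overlap.

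The 3 enzymes that add aminopropyl groups were all higher in the knockdown. AMD1 (chr6:110874770-110895713, plus strand), which makes the aminopropyl donor, was at 34.3, 32.4 and 30.1 CPM in shCtrl and at 47.5, 45.9 and 51.3 CPM in shRBM39. The groups were well apart, and the log2 fold change of 0.58 (SE 0.055), or an increase of 49.5%, was the largest increase of the 10. In comparison, 90.7% of all tested genes had a lower log2 fold change than AMD1.

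SRM (chr1:11054584-11060024, minus strand), spermidine synthase, was at 56.8, 51.4 and 48.9 CPM in shCtrl and at 68.2, 66.8 and 63.6 CPM in shRBM39. Every knockdown library exceeded every control library, by a log2 fold change of 0.34 (SE 0.050). SMS (chrX:21940573-21994835, plus strand), spermine synthase, was at 270, 256 and 259 CPM in shCtrl and at 316, 309 and 312 CPM in shRBM39, a log2 fold change of 0.26 (SE 0.037). The groups of SMS did not overlap either, and its level relative to SRM within a library did, at 4.41 ± 0.241 in shCtrl and 4.15 ± 0.143 in shRBM39 (SD, n = 3). Under library totals alone SRM, SMS and ASL kept their direction with smaller values of 0.22, 0.13 and 0.23.

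ODC1 and SRM are the other genes of the 10 with an E-box in a RefSeq window, and these windows are shown for comparison with that of ASS1, in a gene that hardly differed and in one that was higher. The ODC1 window, at chr2:10447963-10448262 on the minus strand, belongs to 1 of 2 RefSeq starts. It holds 2 E-boxes, of which the first begins 29 bases before that start and the second lies after it. The other window of ODC1 holds 0. The SRM window, at chr1:11059969-11060268 on the minus strand, has its E-box 199 bases before the start. Both are of GRCh38.p14, read 5′ to 3′ along the gene, with E-boxes in capitals.
ODC1 promoter: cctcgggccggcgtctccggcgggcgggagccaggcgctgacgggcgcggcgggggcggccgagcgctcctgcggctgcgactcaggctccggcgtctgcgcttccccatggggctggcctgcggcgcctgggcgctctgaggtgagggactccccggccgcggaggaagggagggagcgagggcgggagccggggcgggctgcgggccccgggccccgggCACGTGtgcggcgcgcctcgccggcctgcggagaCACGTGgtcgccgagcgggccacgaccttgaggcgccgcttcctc
SRM promoter: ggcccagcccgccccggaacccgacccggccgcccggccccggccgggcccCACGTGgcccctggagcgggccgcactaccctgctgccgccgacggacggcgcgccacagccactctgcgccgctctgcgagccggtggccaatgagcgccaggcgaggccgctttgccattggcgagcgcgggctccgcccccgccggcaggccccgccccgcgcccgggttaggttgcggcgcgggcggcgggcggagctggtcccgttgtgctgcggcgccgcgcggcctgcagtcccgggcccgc
All 3 windows shown are rich in G and C, at 78.3% in ASS1, 80.7% in ODC1 and 82.0% in SRM. The 3 genes with an E-box were far lower, nearly level and higher in shRBM39, in the order ASS1, ODC1 and SRM. Whether the E-box bears on any of these differences was not tested.

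SAT1 (chrX:23783173-23786226, plus strand), the acetyltransferase that starts polyamine breakdown, was the most abundant of the 10 and was lower in shRBM39. It was at 1274, 1169 and 1255 CPM in shCtrl and at 875, 904 and 918 CPM in shRBM39. The groups did not overlap, and the log2 fold change was -0.46 (SE 0.039), or 1.37-fold lower. AMD1 and SAT1, on the sides of synthesis and breakdown, thus differed in opposite directions. Their ratio per length was 0.00958, 0.00985 and 0.00853 in shCtrl and 0.0193, 0.0180 and 0.0199 in shRBM39, 2.05-fold higher. SAT1 relative to ODC1 was 13.6 ± 1.15 in shCtrl and 9.12 ± 0.320 in shRBM39 (SD, n = 3), without overlap.

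**Figure D2:**
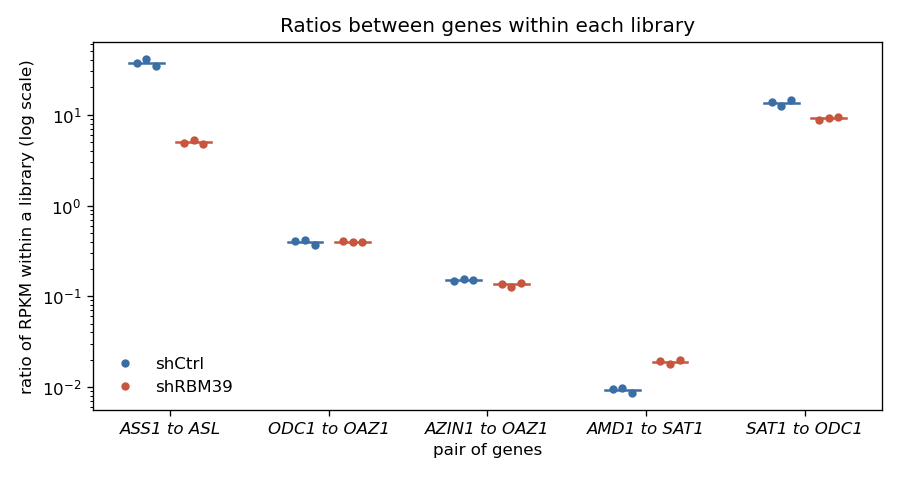
Ratios of RPKM between pairs of genes within each library (log scale), with a point per library and a bar at the group mean. ASS1 to ASL averages 37.4 in shCtrl and 4.97 in shRBM39 and AMD1 to SAT1 averages 0.00932 and 0.0191, whereas the groups of ODC1 to OAZ1 overlap.

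The order of the levels per length was compared next. Length here is that of all exons of a symbol merged, so the positions depend on the annotated exons. OAZ1 has 3436 such bases and SMS 2160, and in CPM OAZ1, at 318 in shCtrl, lay above SMS, at 262. In shCtrl the RPKM order was SAT1 at 514, SMS at 126, ASS1 at 121, OAZ1 at 96.4, ODC1 at 38.1, SRM at 28.7, AZIN1 at 14.6, ARG2 at 8.13, AMD1 at 4.79 and ASL at 3.26. In this order no neighbours overlapped, the closest being SMS and ASS1, whose lowest and highest libraries were 124.4 and 123.6 RPKM. In shRBM39 ASS1, at 19.0 RPKM, came after SRM at 33.4 and before AZIN1 at 12.9, and again no neighbours overlapped. ASS1 thus moved from position 3 to position 6, and AMD1, at 6.56, passed ARG2, at 5.69. The order of the other genes was the same in both groups. Together the 10 genes took 0.253% to 0.262% of all counts in shCtrl and 0.185% to 0.189% in shRBM39. The share is set by library totals, and on that scale the genes did not all fall. AMD1, SRM, SMS and ASL were higher in shRBM39, by log2 fold changes of 0.46, 0.22, 0.13 and 0.23. ASS1, ARG2, SAT1 and AZIN1 were lower, and ODC1 and OAZ1 lay just below 0. The share is weighted to SAT1, at 25674, 24825 and 25508 counts in shCtrl and 17134, 15563 and 17783 in shRBM39, and to ASS1.

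**Figure D3:**
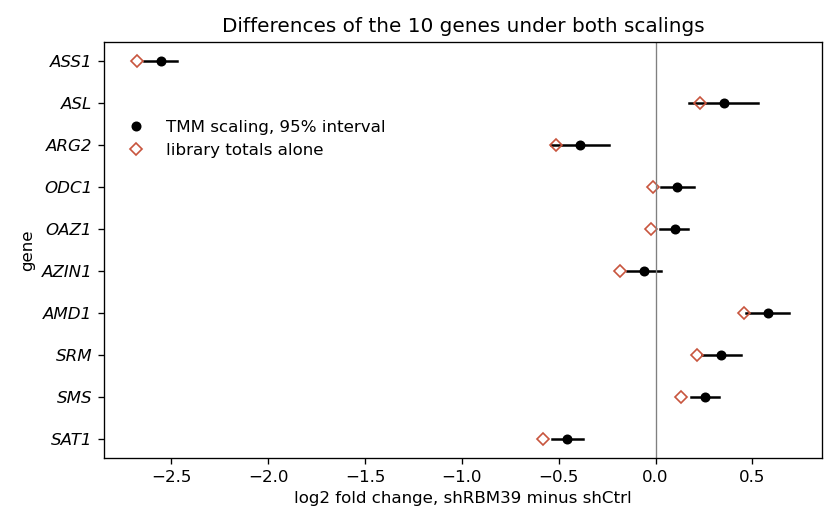
Log2 fold change of each gene, shRBM39 minus shCtrl, with TMM scaling (filled points, bars being the 95% interval) and with library totals alone (open diamonds). ASS1 lies near -2.56 and the other 9 genes lie between -0.46 and 0.58. The diamonds sit lower throughout, and those of ODC1 and OAZ1 fall below 0.

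**Figure D4:**
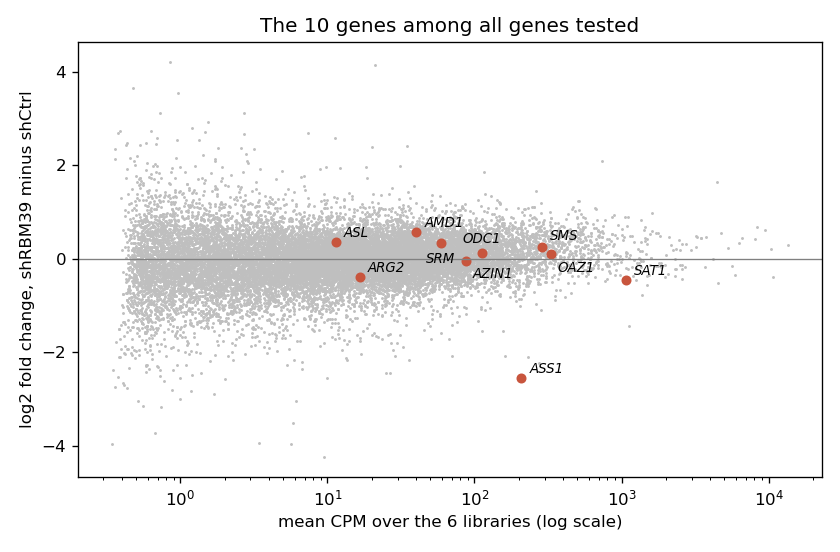
Log2 fold change, shRBM39 minus shCtrl, of all 18243 tested genes (grey) against mean CPM (log scale), with the 10 genes in red. ASS1 lies below nearly all genes of like abundance, and the others lie within the grey cloud. ODC1 and OAZ1, just above 0 here, fall below 0 with library totals alone.

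The genes whose pattern over the 6 libraries was nearest to that of ASS1 were found by the root mean square difference of log2 CPM, each gene being centred on its shCtrl mean, among 12057 other genes averaging 5 CPM or more. The nearest 5 were INHBE (0.118), a subunit of activin E, NUPR1 (0.176), a small stress-induced nuclear protein, NDUFA4L2 (0.194), a mitochondrial protein, NEBL (0.201), an actin-binding protein, and PRSS2 (0.236), a trypsinogen. Their log2 fold changes ran from -2.57 for NEBL to -2.22 for PRSS2. Values close to that of ASS1 follow from how these genes were chosen, and shared regulation was not tested. Of these, PRSS2 was the most abundant, at 453 ± 6.73 CPM in shCtrl and 97.1 ± 7.99 CPM in shRBM39 (SD, n = 3). PRSS2 has close trypsinogen copies between which reads may be split. INHBE, the nearest, was at 45.2 ± 3.91 and 8.34 ± 1.03 CPM.

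To place the 10 genes in their pathways, 57 further genes in 6 lists were examined with edgeR's quasi-likelihood test, p being adjusted over all tested genes. Of these, 46 had enough counts, and 33 passed, 19 higher and 14 lower. That is 71.7% of those tested, against 59.1% of all genes. Their median log2 fold change was 0.13, against -0.01 for all genes. The study calls its replicate experiments independent and does not say whether cultures or infections were separate. The p-values set the group difference against the spread between these libraries. They do not cover variation between clones or hairpins. Library totals alone left 13 higher and 16 lower.

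In the arginine and urea cycle list, 4 of 9 genes were tested, 1 rose and 1 fell, with a median log2 fold change of 0.03. The liver enzymes CPS1 and OTC were among those with too few counts. SLC25A13, the mitochondrial carrier that exports aspartate, the other substrate of ASS1, rose from 33.0 ± 2.36 to 48.1 ± 2.13 CPM (SD, n = 3; log2 fold change 0.54, edgeR adjusted p = 1.19e-10). SLC7A1, the main importer of arginine in many cells, fell from 50.3 ± 1.79 to 36.9 ± 2.53 CPM (log2 fold change -0.45, edgeR adjusted p = 3.88e-09). The arginine importer SLC7A2 had a log2 fold change of -0.11 (edgeR adjusted p = 0.551) and overlapping groups.

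In the list of arginine use and sensing, 10 of 14 genes were tested, 3 rose and 4 fell, with a median of 0.07. DDAH1, which clears methylated arginine, fell from 14.4 ± 0.140 to 5.89 ± 0.471 CPM (log2 fold change -1.29, edgeR adjusted p = 3.91e-14). Its relative DDAH2 fell by 0.14 on the log2 scale (edgeR adjusted p = 0.0117), was not called by DESeq2 at -0.13 and was not called without shCtrl replicate 3, at -0.10. CKB, the creatine kinase of the cytosol, fell from 39.8 ± 2.14 to 18.8 ± 1.01 CPM (log2 fold change -1.08, edgeR adjusted p = 6.54e-17). GAMT, which finishes creatine, and CKMT1A, a mitochondrial creatine kinase, rose by log2 fold changes of 0.54 and 0.73 (edgeR adjusted p = 3.46e-07 and 6.25e-11). CKMT1A has a near-identical copy, CKMT1B, between which reads may be split. AZIN2, a relative of AZIN1 that averaged under 5 CPM, was counted in this list. It fell by 0.625 on the log2 scale (edgeR adjusted p = 0.00378). The nitric oxide synthases NOS1, NOS2 and NOS3 and the enzyme GATM, which draws on arginine for creatine, had too few counts to be tested.

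Ornithine can also go to proline rather than to polyamines. All 8 genes of the ornithine and proline list were tested, 5 rose and 1 fell, with a median of 0.59. OAT, the aminotransferase that links ornithine to proline, rose from 54.2 ± 1.03 to 74.2 ± 3.70 CPM (log2 fold change 0.45, edgeR adjusted p = 1.59e-10). PYCR3 (listed as PYCRL), a reductase of the cytosol that makes proline, rose from 4.43 ± 0.490 to 8.56 ± 0.259 CPM, by 0.94 (edgeR adjusted p = 7.97e-09). Its mitochondrial relative PYCR1 fell from 307 ± 0.502 to 228 ± 4.78 CPM, by 0.43 on the log2 scale (edgeR adjusted p = 2.14e-12), and was the most abundant gene of the list in CPM. ALDH4A1, which breaks proline down towards glutamate, rose by 0.72 (edgeR adjusted p = 7.98e-07). A row on the same strand, RP13-279N23.2, shares 41.1% of its exon bases and had 330 to 393 counts per library. PRODH and PRODH2, both averaging under 5 CPM, were also higher, by 1.73 and 0.85 (edgeR adjusted p = 1.32e-05 and 0.00124). The list thus holds both routes to and from proline, and PYCR1 alone of its called genes was lower.

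Beyond SAT1, OAZ1 and AZIN1, the list of polyamine catabolism, antizymes and transport had 10 tested genes, of which 3 rose and 3 fell, with a median of 0.10. SMOX, the oxidase that returns spermine to spermidine, fell from 78.8 ± 2.28 to 60.4 ± 2.58 CPM (log2 fold change -0.39, edgeR adjusted p = 3.92e-09). Both SAT1 and SMOX, which break polyamines down along separate routes, were lower in shRBM39, while PAOX and SAT2 did not pass (log2 fold changes 0.30 and 0.01, edgeR adjusted p = 0.394 and 0.929). PAOX had 14 to 25 counts per library and an SE of 0.292, so a change like that of SMOX could have gone uncalled. SLC3A2, a transporter heavy chain linked to polyamine export, fell by 0.27 on the log2 scale (edgeR adjusted p = 9.46e-07). OAZ2, a second antizyme, rose from 28.0 ± 1.43 to 36.8 ± 1.19 CPM (log2 fold change 0.39, edgeR adjusted p = 2.03e-07).

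The remaining calls of that list were less firm. OAZ3, the antizyme of the testis, and SLC18B1, a vesicular polyamine carrier, were higher by log2 fold changes of 0.20 and 0.32 (edgeR adjusted p = 0.00614 and 0.00323), and both calls were lost under library totals alone, at 0.08 and 0.20. The groups of OAZ3 overlapped, its row shares bases with MRPL9 and other genes, and its call was also lost without shCtrl replicate 2, at 0.15. ATP13A3, a polyamine importer, was lower by a log2 fold change of -0.19 (edgeR adjusted p = 0.00298), a call lost after correction for GC content and length, at -0.06, and without shRBM39 replicate 2, at -0.14.

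Spermidine also supplies the hypusine of EIF5A, a translation factor and the only known kind of protein that carries it. All 4 genes of this list passed, 2 rose and 2 fell, with a median of -0.04. EIF5A, among the most abundant of these genes, rose from 368 ± 13.5 to 555 ± 14.9 CPM (log2 fold change 0.59, edgeR adjusted p = 1.85e-15). GPS2 on the opposite strand, with 5154 to 6028 counts per library, shares 8.56% of the EIF5A exon bases. EIF5A2, a relative of EIF5A that averaged under 5 CPM, fell by 0.689 on the log2 scale (edgeR adjusted p = 0.000809). The pair of enzymes that build hypusine moved apart. DHPS, which transfers part of spermidine onto EIF5A, fell from 63.6 ± 4.73 to 51.3 ± 0.301 CPM (log2 fold change -0.31, edgeR adjusted p = 1.71e-06). DOHH, which finishes hypusine, was higher by 0.23 (edgeR adjusted p = 0.00849), a call lost under library totals alone, at 0.11, and without shRBM39 replicate 1, at 0.19.

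The last list covers S-adenosylmethionine, from which AMD1 draws, and the salvage of the methylthioadenosine that SRM and SMS release. Of 12 genes, 10 were tested, 5 rose and 3 fell, with a median of 0.04. MAT2A, which makes S-adenosylmethionine, fell from 285 ± 5.54 to 257 ± 3.95 CPM (log2 fold change -0.15, edgeR adjusted p = 0.00081). Its regulatory partner MAT2B was higher by 0.18 (edgeR adjusted p = 0.0102), a call lost under library totals alone, at 0.06, and without shRBM39 replicate 3, at 0.11. MTAP, the first enzyme of the salvage, was at 31.1 ± 0.673 and 30.9 ± 1.56 CPM (log2 fold change -0.01, edgeR adjusted p = 0.951).

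Of the other genes of the list, ENOPH1, a salvage enzyme, had overlapping groups and a log2 fold change of -0.06 (edgeR adjusted p = 0.332). ADI1, a dioxygenase near its end, rose from 67.7 ± 1.22 to 99.0 ± 0.708 CPM (log2 fold change 0.55, edgeR adjusted p = 1.35e-13). IL4I1, an amino acid oxidase, rose by 0.45 (edgeR adjusted p = 6.7e-08), and its row shares 13.1% of its exon bases with NUP62 on the same strand. GOT1, an aspartate aminotransferase, fell by 0.18 on the log2 scale (edgeR adjusted p = 0.00495). APIP, a dehydratase, was higher by 0.20 (edgeR adjusted p = 0.00972), a call lost under library totals alone, at 0.07, and without shRBM39 replicate 3, at 0.16. MRI1, an isomerase, had a log2 fold change of -0.17 (edgeR adjusted p = 0.017), was not called by DESeq2 at -0.16, and lost its call without shCtrl replicates 1 or 2 or shRBM39 replicate 3, at -0.15, -0.16 and -0.13. CTB-5E10.3 on the opposite strand shares 31.2% of its exon bases.

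**Figure D5:**
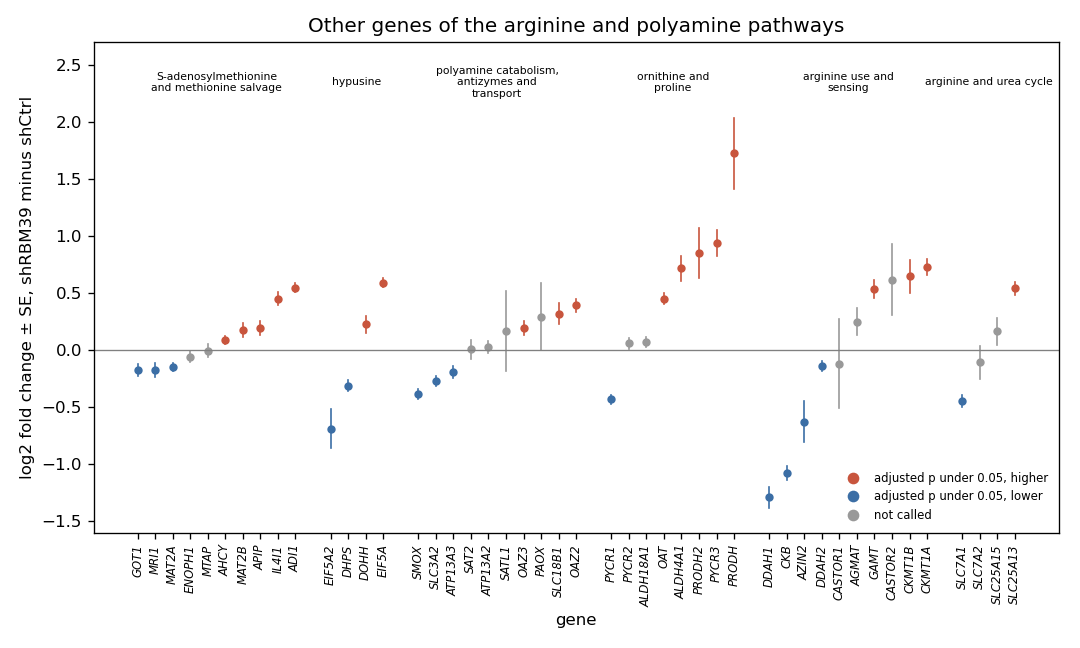
Log2 fold change ± SE, shRBM39 minus shCtrl, of the 46 tested genes of the 6 lists, in red where higher and in blue where lower at an adjusted p under 0.05, and in grey where not called. Each list holds genes of both directions, and 5 of the 8 ornithine and proline genes are higher. All values move down when library totals alone set the scale, and those just above 0 then fall below it.

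Finally, the splicing records were searched for the same genes. The table, made with rMATS, lists 1582 records that had been selected for a difference, so the levels are a description, and it does not say which of its groups is the knockdown. Of the 10 genes, AZIN1 had 1 record and the other 9 had none, which says only that they are not in the list. The AZIN1 record is a skipped exon of 146 bases at chromosome 8, 102849999 to 102850144, on the minus strand (GRCh38). It lies between exons 2 and 3 of the 12 exons of the canonical GENCODE transcript, is present in 2 of 17 transcripts, and holds 0 coding bases in each. Its inclusion level was 0.282, 0.347 and 0.320 in group 1 and 0.493, 0.485 and 0.520 in group 2, from 66 to 99 reads per value. The groups did not overlap in this level. The total level of AZIN1 overlapped in TMM-scaled CPM and did not in RPKM, where it was 14.0, 14.9 and 14.9 in shCtrl and 13.1, 12.2 and 13.3 in shRBM39. Of the list genes, SLC3A2, MRI1 and PRODH2 had 4 records between them.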

How the data were processed

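mRNA of SW480 cells was sequenced in 6 libraries, 3 shCtrl and 3 shRBM39, grouped by the sample titles. Columns named NC were read as shCtrl, the only control. The submitters' processing notes name Trimmomatic 0.36, STAR 2.5.3a, featureCounts (Subread 1.5.1), edgeR 3.12.1 and GRCh38. Counts per gene symbol were deposited by the authors without normalization, with the exons of a symbol merged, and RPKM values, which were recomputed from the counts and library totals to a relative difference of at most 1.2e-13. The treatment of multi-mapped reads, of strand and of unique identifiers in counting is not stated, and it bears on copies, overlapping genes and abundant genes. The authors also deposited an rMATS table of selected records with inclusion and skipping reads. Its columns of p-values and FDR, and a tally of events, were not used.

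Counts were fitted with edgeR 4.0.16 (R 4.3.3): filterByExpr, TMM, a quasi-likelihood fit on group, and Benjamini-Hochberg adjustment over 18243 genes at 0.05. SE was derived from the log2 fold change and its F statistic, and intervals are at 95%. The biological coefficient of variation was 0.035. The fit was tested on simulated counts in which few genes differed and all had the same dispersion. Far more genes differ in these data, so that test does not bear on the choice of scaling. The 10 genes, the pathway lists and the gene pairs were chosen with earlier results of these data known. Named are the 10 genes, RBM39, up to 4 called genes per list and direction with the largest change at a mean of at least 5 CPM, and the 5 genes nearest to ASS1. Other genes (SLC7A2, SAT2, PAOX, MTAP, ENOPH1, PRODH, PRODH2, AZIN2 and EIF5A2, and untested genes) were named after their values were seen. Of the pathway lists, 1 gene is not reported here and was left out of their counts. Exon overlap and GC content came from the file's exons and GRCh38, transcripts of AZIN1 from GENCODE v44, and promoters from RefSeq.

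The alternatives changed the tool (DESeq2 1.42.0), the scaling (upper quartile, or library totals alone), the filter (none, or a minimum of 10 counts per library) or the scale (limma-trend, limma 3.58.1, on log2(RPKM + 1) and log2(RPKM + 0.1)). Others were a replicate block, a spline correction for GC content and length (18202 genes), and each replicate left out in turn.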

Additional observations from a re-analysis of the deposited data

How the results depend on the processing

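Over 15 alternatives, ASS1, ASL, ARG2, SRM, SMS, SAT1, AMD1 and RBM39 kept their direction and their side of the threshold. Apart from RBM39, these genes were listed with their difference already known, and each alternative drew on the same libraries. Their kept calls follow largely from that choice, and nothing is read from them beyond how far the values moved. The pathway genes examined here were picked as called genes with the largest changes of their list, so kept calls follow partly from that choice. Of 570 values of 38 genes, 527 kept both, 34 lost the call, 3 gained one and 6 turned. Those that turned were ODC1 and OAZ1: under library totals alone they were at -0.013 and -0.026, on log2(RPKM + 1) at -0.010 and -0.025, and on log2(RPKM + 0.1) at -0.011 and -0.026. None of these 6 values passed the threshold, so they are not told apart from 0. The 3 gains were AZIN1 as lower under the same settings, at -0.18, -0.17 and -0.18. RPKM is scaled by library totals as well, and the median of all tested genes moves with that scale. All genes called higher numbered 3530 on log2(RPKM + 1) and 3535 on log2(RPKM + 0.1), against 5327. With a replicate left out, they ran from 5030 to 5134 and those called lower from 5076 to 5129. ODC1 also lost its call under upper-quartile scaling, at 0.08, after correction for GC content and length, at 0.08, and without shCtrl replicate 3 or shRBM39 replicate 2, at 0.07 and 0.11. OAZ1 lost its call under upper-quartile scaling, at 0.07, and without shCtrl replicate 2 or shRBM39 replicate 2, at 0.09 and 0.09. The cause was not tested.

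Same-numbered replicates of the groups had correlations of 0.0058, -0.048 and 0.037 over 12058 genes, so the numbers are not taken to pair the samples. With the replicate block, 5340 genes were higher and 5470 lower, and 6 and 3 of the 10 genes were called in those directions. Because the 10 genes were chosen on this contrast, their calls are given as a description only. Counting depth limits ASL most.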
